A study of Mus musculus with 30 samples.

Results

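Akr1b7, 9530053A07Rik, Serpina1f, Pbsn and Defb42 are 5 genes known from the male reproductive tract that were counted in F4/80+ cells sorted from visceral adipose tissue (adipose tissue macrophages, ATMs). They are 5 of the 17059 genes in the ATM count table, and 1 of them, Akr1b7, is among the 13353 genes in the count table of bone marrow (BM). The 5 genes were chosen by an earlier reading of these same ATM counts, so their levels across the groups are given as a description, with no test. The 5 groups had 3 libraries each, 15 per tissue. The study asked how obesity, and its treatment, alters marrow and fat macrophages after transplantation of Shp2-mutant hematopoietic cells.

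All recipients were lethally irradiated (700 cGy and then 400 cGy) and received BM from Shp2E76K/+;LysM-Cre+ donors (CD45.2+), an activating mutation of a tyrosine phosphatase combined with a Cre driven by a myeloid promoter, mixed in equal parts with BM of Boy/J mice (CD45.1+). The labels give C57BL/6J and an age of 12 to 14 weeks for every sample. WT recipients were lean and untreated, and the other recipients were Ob/Ob mice, which lack leptin and become obese. From 8 weeks after transplantation the Ob/Ob mice were treated for 30 days with vehicle (Vehicle), with the GLP-1 receptor agonist Beinaglutide at 3 mg/kg (GLP1), with an anti-IL-17A antibody at 200 μg per mouse 3 times per week (antiIL17A), or with both (Combo). A legend of the study names WT donor cells for the WT libraries of ATMs, so the donor may differ too between WT and Vehicle. The same legend names Ob/Ob recipients, so it is not clear from it that the WT libraries of ATMs came from lean mice. The sex of single animals is not given in the labels, and the visceral depot that was taken is not named. In these bulk libraries, fewer cells of a type and less RNA per cell cannot be told apart.

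The epididymis is the coiled duct in which sperm mature, and its epithelium secretes proteins into the lumen, among them beta defensins, cysteine-rich secretory proteins, lipocalins and protease inhibitors. Many of these genes are switched on by androgen, and they are used in distinct segments of the duct. The vas deferens, the prostate and the seminal vesicle each secrete a set of their own. In male mice the epididymis lies against the epididymal fat pad.

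The label "epididymal" covered the 5 genes only in part. Serpina1f, a serpin also called epserin, and Defb42, a beta defensin, are known from the epididymis. Pbsn encodes probasin, a secretory lipocalin of the prostate. Akr1b7 is an aldose reductase-like enzyme known from the vas deferens and the adrenal cortex and also found in white adipose tissue. 9530053A07Rik is a gene of the Fc-gamma binding protein family, whose products resemble mucins. They are therefore called male tract genes here, and no tissue is named as their source.

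The 5 genes lie on 5 chromosomes. In the GENCODE annotation of GRCm38, Akr1b7 spans chr6:34412334-34423142 on the plus strand, 9530053A07Rik spans chr7:28129466-28164811 on the plus strand, and Serpina1f spans chr12:103688044-103695529 on the minus strand. Pbsn spans chrX:77837901-77853623 on the minus strand and Defb42 spans chr14:63046991-63058149 on the plus strand. All 5 are annotated as protein-coding. The 250 bases before each start site are printed here from RefSeq (GRCm38.p6), 5′ to 3′ on the strand of the gene. The RefSeq start sites of Akr1b7 and Pbsn lie inside the GENCODE spans given above, so part of their windows lies within those spans. Capitals mark TGTTCT, the half-site of the hormone response element that the androgen receptor shares with other steroid receptors, on either strand (AGAACA on the other).

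Akr1b7, chr6:34412112-34412361: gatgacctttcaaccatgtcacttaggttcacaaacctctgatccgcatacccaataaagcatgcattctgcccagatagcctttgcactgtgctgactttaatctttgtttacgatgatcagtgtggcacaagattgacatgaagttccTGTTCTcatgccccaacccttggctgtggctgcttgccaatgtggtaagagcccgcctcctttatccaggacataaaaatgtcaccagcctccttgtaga
9530053A07Rik, chr7:28129216-28129465: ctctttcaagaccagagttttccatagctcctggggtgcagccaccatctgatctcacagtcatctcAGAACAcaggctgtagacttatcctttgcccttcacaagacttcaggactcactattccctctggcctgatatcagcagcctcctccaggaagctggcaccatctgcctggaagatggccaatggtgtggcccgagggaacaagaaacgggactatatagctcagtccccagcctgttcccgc
Serpina1f, chr12:103695530-103695779, minus strand: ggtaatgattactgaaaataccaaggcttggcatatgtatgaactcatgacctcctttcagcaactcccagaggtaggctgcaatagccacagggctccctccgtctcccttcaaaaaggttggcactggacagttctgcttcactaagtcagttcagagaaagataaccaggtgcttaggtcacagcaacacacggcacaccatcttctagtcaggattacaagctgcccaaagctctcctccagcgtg
Pbsn, chrX:77853501-77853750, minus strand: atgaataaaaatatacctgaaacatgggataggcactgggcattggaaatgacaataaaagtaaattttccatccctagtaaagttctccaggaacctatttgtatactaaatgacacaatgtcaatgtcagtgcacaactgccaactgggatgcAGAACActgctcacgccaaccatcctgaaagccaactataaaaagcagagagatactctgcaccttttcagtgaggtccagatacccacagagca
Defb42, chr14:63046741-63046990: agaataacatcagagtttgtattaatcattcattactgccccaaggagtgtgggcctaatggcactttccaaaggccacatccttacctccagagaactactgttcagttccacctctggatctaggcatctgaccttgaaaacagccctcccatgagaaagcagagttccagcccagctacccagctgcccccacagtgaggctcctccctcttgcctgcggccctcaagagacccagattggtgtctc

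The half-site was found in 3 of the 5 windows, 100 bases before the start site of Akr1b7, 183 before that of 9530053A07Rik and 95 before that of Pbsn, where it lies within the GENCODE span. Of 32851 RefSeq promoter windows of the same length, 16.1% hold it. The windows of Serpina1f and Defb42 do not hold these letters. The TATA sequence TATAAA, in 12.4% of all windows, stood only in that of Pbsn, and it does not overlap the half-site. These matches describe the letters and not a bound site.

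Total counts per ATM library ranged from 24876074 to 45300263, with a median of 31854058, and those per BM library from 31086184 to 39925495. The smallest total of any gene over the 15 ATM libraries was 54, so genes with few counts everywhere hold no row, and a gene that is near 0 in most groups is in the table only because another group has it. Levels below are counts per 1000000 of the library size after TMM scaling (CPM). The macrophage markers that the F4/80 sort implies were present in every library. Adgre1, which encodes F4/80, held 5363 to 6993 counts in WT, 750 to 1184 in Vehicle, 9596 to 15322 in GLP1, 35909 to 42339 in antiIL17A and 13827 to 15551 in Combo. The summed level of 12 macrophage genes was lowest in Vehicle, 3452.9 to 3698.1 CPM, 4917.4 to 5191.8 CPM in WT and 11491.8 to 16851.8 CPM in the other 3 groups. That of 8 fibroblast genes was 15390.9 to 16322.6 CPM in WT, 5871.8 to 6297.5 in Vehicle and 23973.4 to 24414.9 in GLP1. It was 15232.2 to 15496.9 CPM in antiIL17A and 13266.3 to 13632.6 in Combo. The fibroblast sum thus lay above the macrophage sum in every group but antiIL17A.

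Akr1b7 reduces lipid-derived aldehydes, and in WT it was the gene with the highest count in each of the 3 libraries, above every macrophage gene. It held 356959, 409600 and 398003 counts in WT. In Vehicle it held 0, 0 and 3 counts. GLP1 libraries had 4983, 3675 and 5478 counts, antiIL17A libraries had 2494, 2351 and 2212, and Combo libraries had 72, 85 and 143. The groups did not overlap, and they ran from WT through GLP1, antiIL17A and Combo down to Vehicle. On the CPM scale, Akr1b7 stood at 12953.8 ± 131.0 (SD, n = 3) in WT, 147.8 ± 3.29 in GLP1, 53.4 ± 0.782 in antiIL17A and 2.76 ± 1.17 in Combo. Vehicle was at least 99966.0-fold lower than WT, with 3 counts per library as the floor for a group whose libraries all hold 3 or fewer. GLP1 was 87.6-fold and antiIL17A 242.7-fold lower than WT, and Combo was at least 21.3-fold higher than Vehicle.

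9530053A07Rik ranked 5 among all genes in each WT library, with 201813, 222216 and 213098 counts. Vehicle libraries held 0, 0 and 1. GLP1 libraries held 704, 661 and 1258 counts, antiIL17A libraries held 307, 126 and 128, and Combo libraries held 11, 0 and 5. All GLP1 libraries were above all antiIL17A libraries, and Combo overlapped Vehicle. The level was 7094.3 ± 130.6 CPM (SD, n = 3) in WT, 27.1 ± 5.98 in GLP1 and 4.16 ± 2.02 in antiIL17A. It was 262.2-fold lower in GLP1 and 1706.8-fold lower in antiIL17A than in WT, the largest fall of the 5 genes in either group.

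Serpina1f held 31170, 35981 and 35474 counts in WT and 0 in every library of Vehicle and of Combo. The GLP1 libraries had 324, 337 and 365 counts. The antiIL17A libraries had 701, 827 and 685, so here antiIL17A lay above GLP1, the reverse of Akr1b7. On the CPM scale the level was 1141.3 ± 23.0 (SD, n = 3) in WT, 11.0 ± 2.37 in GLP1 and 16.8 ± 2.15 in antiIL17A. GLP1 was 103.5-fold lower and antiIL17A 68.0-fold lower than WT.

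Pbsn held 22691, 24747 and 25556 counts in WT and 0 in each Vehicle library. GLP1 libraries had 361, 238 and 412 counts, antiIL17A libraries had 42, 105 and 87, and Combo libraries had 7, 0 and 0. GLP1 and antiIL17A did not overlap, and Combo was at 0 in all but 1 library. The level was 812.6 ± 27.4 CPM (SD, n = 3) in WT, 10.5 ± 0.644 in GLP1 and 1.80 ± 0.808 in antiIL17A, which was 77.7-fold and 451.3-fold lower than WT.

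Defb42 had the fewest counts of the 5 genes in WT and GLP1. WT libraries held 6439, 7170 and 7141 counts, and all libraries of Vehicle and Combo held 0. The GLP1 libraries had 139, 119 and 202 counts and the antiIL17A libraries 171, 177 and 98. GLP1 and antiIL17A overlapped in raw counts, from libraries of different depth. They did not overlap on the CPM scale, with 4.17, 4.86 and 5.31 CPM in GLP1 and 3.61, 4.08 and 2.36 CPM in antiIL17A. On the CPM scale Defb42 stood at 230.9 ± 3.59 (SD, n = 3) in WT, 4.78 ± 0.575 in GLP1 and 3.35 ± 0.891 in antiIL17A. The falls from WT were 48.3-fold in GLP1 and 68.9-fold in antiIL17A.

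**Figure D1:**
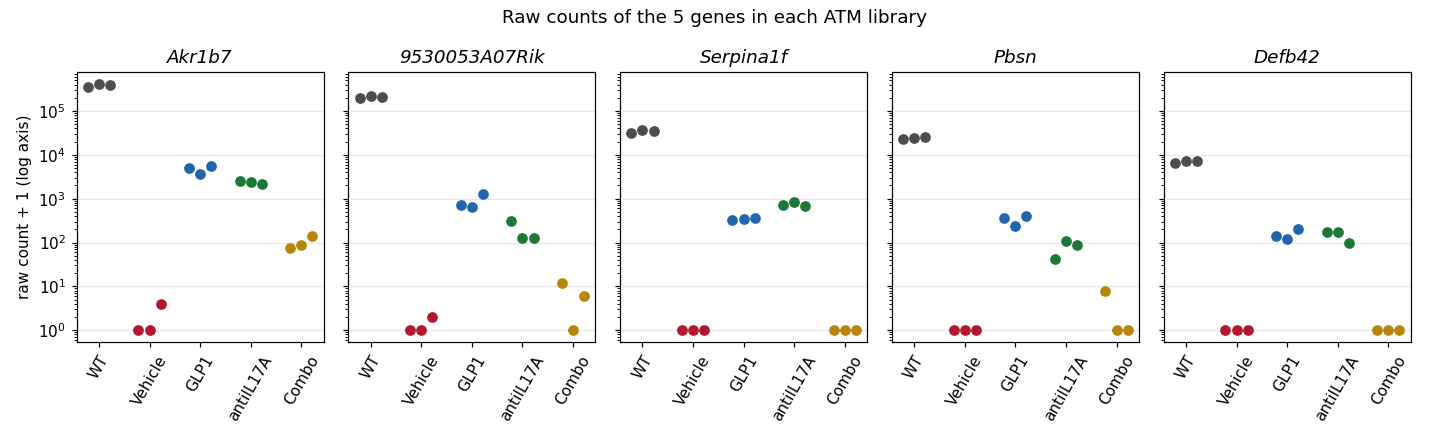
Raw count plus 1 on a log axis for Akr1b7, 9530053A07Rik, Serpina1f, Pbsn and Defb42, 1 point per ATM library, 3 libraries for each of the 5 groups. WT lies above all other groups in every panel, GLP1 and antiIL17A lie between, and Vehicle lies at or near 0, with Akr1b7 the only gene at 72 counts or more in every Combo library.

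Together the 5 genes took 2.47% to 2.49% of all counts in the WT libraries, 0.0186% to 0.0196% in GLP1 and 0.00806% to 0.00863% in antiIL17A. Their sum was 5030 to 7715 counts in GLP1 and 3210 to 3715 in antiIL17A, against 619072 to 699714 in WT. No batch that divides the 15 libraries is named, although the paper's methods mention a correction for batch effects and library preparation. How close the libraries of a group lay differed by gene and group. The coefficient of variation of Akr1b7 was 1.01% in WT, 2.23% in GLP1 and 1.47% in antiIL17A, where counting error alone gives 0.161%, 1.46% and 2.06%. In Combo it was 42.5%, against 10% from counting. It was 48.5% for 9530053A07Rik and 44.9% for Pbsn in antiIL17A, against 7.31% and 11.3% from counting, and 22.1% for 9530053A07Rik in GLP1, against 3.38%. The design text calls the 3 samples of a group separate mice, and whether any were pooled or split was not tested. The SDs and SEs given here are therefore those between libraries.

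Per kilobase of exon, Akr1b7 was also the most abundant of the 5 in WT, with 10112.3 CPM per kb. Pbsn followed with 900.9, 9530053A07Rik with 599.0, Serpina1f with 358.3 and Defb42 with 95.2 CPM per kb. In antiIL17A the order was Akr1b7 at 41.7, Serpina1f at 5.27, Pbsn at 2.00, Defb42 at 1.38 and 9530053A07Rik at 0.351 CPM per kb. The genes thus kept neither their ratios nor their order from WT to antiIL17A. In GLP1 Akr1b7 stood at 115.4 and Pbsn at 11.6 CPM per kb, again ahead of the other 3.

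Within a library, the share of each gene in the summed counts of the 5 can be compared without any scaling between libraries. Akr1b7 made up 58.3% ± 0.523 (SD, n = 3) of the sum in WT, 73.5% ± 2.79 in GLP1 and 67.2% ± 1.68 in antiIL17A. 9530053A07Rik made up 31.9% ± 0.628 in WT but 13.4% ± 2.76 in GLP1 and 5.25% ± 2.62 in antiIL17A. Serpina1f made up 5.13% ± 0.0940 in WT, 5.47% ± 1.07 in GLP1 and 21.1% ± 2.11 in antiIL17A. The shares of 9530053A07Rik did not overlap between these 3 groups, and the share of Serpina1f in antiIL17A, at least 18.9%, lay above all 6 libraries of WT and GLP1. Counted as a ratio, there were 1.77 to 1.87 Akr1b7 reads per 9530053A07Rik read in WT, 4.35 to 7.08 in GLP1 and 8.12 to 18.7 in antiIL17A. Akr1b7 to Serpina1f moved the other way, from 11.2 to 11.5 in WT to 2.84 to 3.56 in antiIL17A, with 10.9 to 15.4 in GLP1. The ratios of 1 group did not overlap those of the next for 9530053A07Rik, and for Serpina1f antiIL17A stood apart from both other groups.

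**Figure D2:**
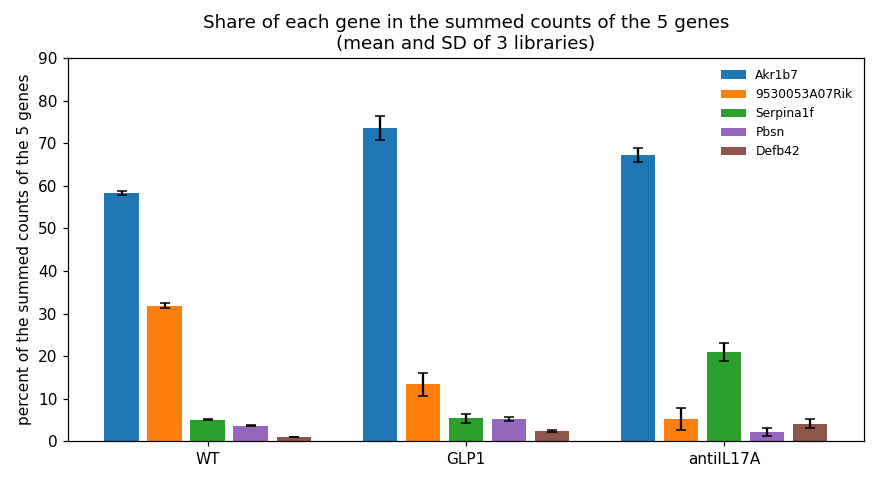
Share of Akr1b7, 9530053A07Rik, Serpina1f, Pbsn and Defb42 in the summed counts of the 5 genes, in percent, for WT, GLP1 and antiIL17A. Bars give the mean and lines the SD of 3 ATM libraries. The share of 9530053A07Rik falls from 31.9% in WT to 5.25% in antiIL17A, and that of Serpina1f is highest in antiIL17A at 21.1%.

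The table holds 6 paralogs of the 5 genes. In Vehicle vs WT 2 of them, Akr1b10 and Serpina1b, were lower and 3 higher, against 22.9% and 12.5% of all genes. Akr1b8, a reductase beside Akr1b7 on the same chromosome, held 700 to 896 counts in WT, 1224 to 1582 in Vehicle and 5074 to 6712 in antiIL17A. Akr1b10 held 1055 to 1205 counts in WT, 164 to 302 in Vehicle, 418 to 519 in GLP1, 932 to 1532 in antiIL17A and 677 to 703 in Combo. Serpina1b had few counts, 14 to 18 in WT, 9 to 13 in GLP1, 0 to 26 in antiIL17A and 0 in each library of Vehicle and Combo. Like the 5 genes it was all but absent from Vehicle, but it lacked their large falls from WT to GLP1 and antiIL17A. Serpina1d held 13 to 15 counts in WT and at most 45 in any library, and was not called in that comparison. Fcgbp, the closest relative of 9530053A07Rik here, ran the other way in Vehicle, with 178 to 398 counts in WT and 856 to 1425 in Vehicle. Like 9530053A07Rik it was lower than WT in GLP1, at 0 to 30 counts, and in antiIL17A, at 0 in each library. Serpina1e, a liver-type serpin, held 0 to 28 counts in WT and 408 to 667 in Vehicle. Of the windows of 50 bases in its transcripts, Akr1b7 shares 15.8% with Akr1b8, Akr1b10 and 2 predicted genes, and 27.2% of its exon bases lie under the predicted gene Gm13857. 9530053A07Rik shares 8.56% of its windows with Fcgbp, and the other 3 genes share none. Reads on shared stretches could have been counted for a neighbor, and Defb30 overlaps Defb42 on the opposite strand without sharing exon bases, in a table counted without strand.

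In BM, Akr1b7 held 61, 49 and 33 counts in WT, 23, 36 and 23 in Vehicle, 12, 28 and 22 in GLP1, 7, 18 and 14 in antiIL17A, and 1, 5 and 1 in Combo. These values stood at 1.33 ± 0.259 CPM of the library total (SD, n = 3) in WT and 0.0647 ± 0.0647 in Combo. Akr1b7 was 10828.5-fold higher in ATMs than in BM of WT mice on that scale, 14422.5 against 1.33 CPM, with the tissues counted in separate tables. In Vehicle the order was reversed, since BM libraries had 23 to 36 counts and ATM libraries 0 to 3. The BM table used here holds no row for the other 4 genes, and of the 44 other epididymal and defensin genes counted in ATMs it holds rows for Rnase10 and Rnase12.

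Beyond the 5 genes, 44 genes of 2 lists were tested, 24 of 38 epididymal genes and all 20 beta defensins that the ATM table names. The lists were written with earlier results of these data known, and their genes are in the table only where some group had them, so that at least 1 group had to be high. The test was edgeR's quasi-likelihood test over all 17059 genes, with a call at a Benjamini-Hochberg adjusted p under 0.05 and a log2 fold change beyond 1. Among the 5 groups, 43 of the 44 genes differed at that adjusted p, against 73.5% of all genes, and Rnase10 did not.

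In Vehicle vs WT, 36 of the 44 genes were lower and 1, Adam28, was higher, while 22.9% of all genes were lower and 12.5% higher. Crisp1, a sperm-coating secretory protein, was the most abundant, with 83289 to 94859 counts in WT and 0 to 13 in Vehicle. Spink11, a protease inhibitor, held 4875 to 6287 counts in WT and 0 in Vehicle. Defb43, a neighbor of Defb42 in the defensin family, held 2309 to 2423 in WT and 0 in Vehicle. Adam28, a metalloprotease that lymphocytes also express, held 0 to 11 counts in WT and 257 to 503 in Vehicle (log2 fold change 7.14, SE 0.984, adjusted p 1.55e-05). The median log2 fold change of the 44 was -8.32, against -0.21 for all genes. With groups at 3 counts or fewer set at that floor, the median log2 ratio was -4.09. In Vehicle, 18 of the 24 epididymal genes and 11 of the 20 defensins held 0 in all 3 libraries.

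In GLP1 vs Vehicle, 12 of the 44 genes were higher and 4 lower, against 20.8% and 10.9% of all genes. Crisp1 was at 1021 to 1717 counts in GLP1 (log2 fold change 7.84, SE 0.396, adjusted p 1.26e-10). Cst8, a cystatin of the epididymis and testis, rose from 0 in each Vehicle library to 174 to 338, and Defb50 from 0 to 5 counts to 233 to 456. Adam28, Wfdc8, Defb1 and Defb26 were lower, but only 1 gene was called lower without GLP1 replicate 1, 2 or 3, and 2 without Vehicle replicate 1. The median log2 fold change was 2.40, against 0.19 for all genes, and 0.99 with the floor over the 23 genes that allow a ratio.

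In antiIL17A vs Vehicle, 33 of the 44 genes were higher and 2 lower, against 22.4% and 13.1% of all genes. The median log2 fold change was 8.09, against 0.17 for all genes, and 3.99 with the floor over 43 genes. Crisp1 held 5442 to 6414 counts. Adam7, a sperm membrane protein made in the epididymis, held 599 to 807 counts, Ces5a, a secreted esterase, 648 to 882, and Defb22, a defensin of the sperm surface, 339 to 439, all from 0 in each Vehicle library. Adam28 and Wfdc8 were lower, with 1 gene called lower without Vehicle replicate 3 or without any 1 of the 3 antiIL17A libraries.

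In Combo vs Vehicle none of the 44 genes was higher and 8 were lower by edgeR, against 14.1% and 12.2% of all genes. At an unadjusted p under 0.05, 1 was higher and 11 lower, and DESeq2 called 1 higher and 9 lower. The lower genes were Adam28, Eppin, Wfdc8, Wfdc10, Defb1, Defb11, Defb19 and Defb26. Some rested on few reads, as in Eppin, a sperm-binding protease inhibitor with 0 to 8 counts in Vehicle and 0 in Combo. The count fell to 4 without Combo replicate 1 or 3 and to 5 without Combo replicate 2. The 4 comparisons so far share the Vehicle libraries.

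A further 3 comparisons with WT and 1 between treated groups were added after the counts had been seen. In antiIL17A vs WT, 10 of the 44 genes were lower and 3 higher, against 9.04% and 9.65% of all genes, with a median log2 fold change of -0.40. The 5 male tract genes were 68.0-fold to 1706.8-fold lower in the same comparison. Cst8, Wfdc15a and Defb22 were the higher genes, Defb22 with a log2 fold change of 1.57 (SE 0.496, adjusted p 0.0328). The number called higher fell to 1 without WT replicate 2 or 3 or antiIL17A replicate 1 or 2, and to 2 without WT replicate 1 or antiIL17A replicate 3. Crisp1 was lower by 4.45 on the log2 scale (SE 0.202). On the same scale, Spink11 fell by 6.03 and Defb43 fell by 5.11. Those 3 were the genes of the lists with the highest level in WT. Adam7 stood at 16.9 CPM in WT and 15.9 CPM in antiIL17A and was not called.

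In GLP1 vs WT, 31 of the 44 genes were lower and 3 higher, against 7.42% and 7.70% of all genes. Adam28, Cst8 and Defb33 were higher, Cst8 with a log2 fold change of 2.63 (SE 0.508, adjusted p 0.00175). The number called higher fell to 1 without WT replicate 1 or 3 or GLP1 replicate 1, and to 2 without WT replicate 2 or GLP1 replicate 2 or 3. In antiIL17A vs GLP1, 24 were higher and 2 lower, against 3.22% and 4.88% of all genes. Adam7, Gpx5, an epididymal glutathione peroxidase, and Defb22 were at 0 in all GLP1 libraries and held 599 to 807, 139 to 160 and 339 to 439 counts in antiIL17A. Defb50 went the other way, with 233 to 456 counts in GLP1 and 2 to 30 in antiIL17A (log2 fold change -4.97, SE 0.701, adjusted p 5.76e-05). In Combo vs WT, 41 were lower and 1 higher, against 14.5% and 7.08% of all genes. The higher gene was again Adam28.

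**Figure D3:**
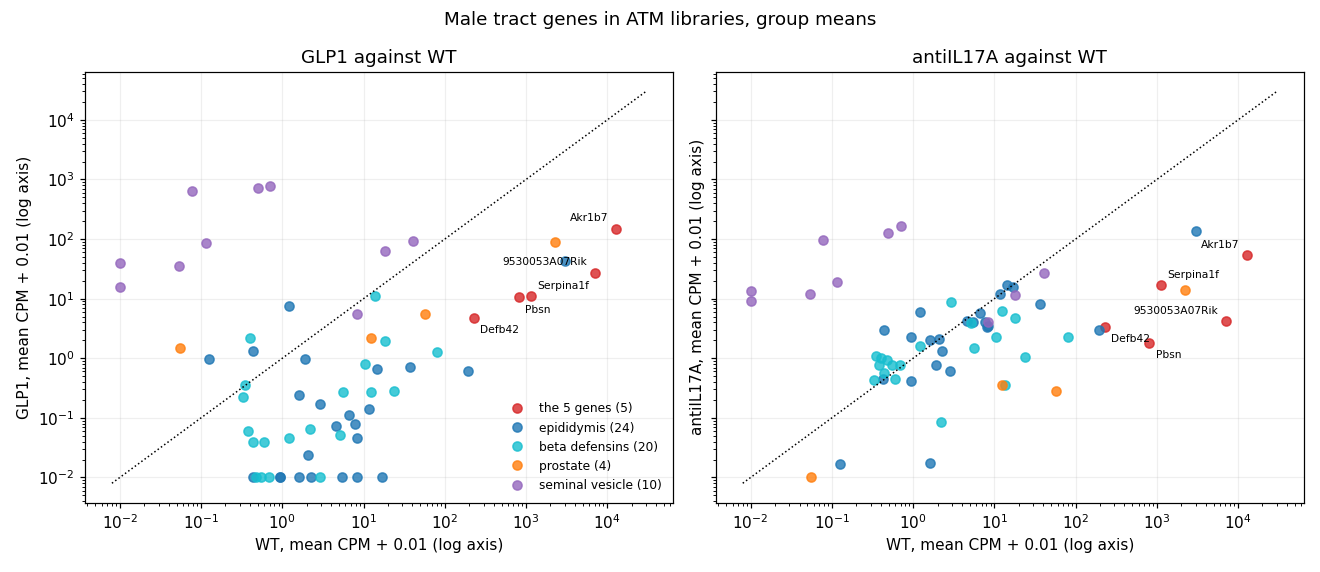
Mean CPM plus 0.01 in GLP1 (left) and antiIL17A (right) against WT, both axes on a log scale, 1 point per gene, each the mean of 3 ATM libraries, with the dotted line at equal levels. The 5 male tract genes lie far below the line in both panels. Epididymal genes and defensins lie mostly below it in GLP1 and on both sides of it in antiIL17A, and the seminal vesicle genes with almost no reads in WT lie above it.

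Genes of other male tract tissues moved in step with the 5 genes only in part. Tgm4, a prostate transglutaminase, held 61140 to 70878 counts in WT, 141 to 164 in Vehicle, 2104 to 3153 in GLP1, 527 to 747 in antiIL17A and 299 to 371 in Combo. Hoxb13, a homeobox gene of the prostate and hindgut, held 335 to 429 counts in WT, 62 to 70 in GLP1, 0 to 39 in antiIL17A and 0 in Vehicle and Combo. Tgm4 thus kept the group order of Akr1b7, and Hoxb13 was likewise highest in WT and next in GLP1. Of the exon bases of Tgm4, 25% lie under Gm49323 and Zdhhc3, so reads of these could have been counted for it. None of the 4 prostate genes tested was called in Combo vs Vehicle, where 14.1% of all genes were higher and 12.2% lower. Msmb, a secreted prostate protein, ran another way, with 0 to 2 counts in WT and 26 to 86 in GLP1.

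As a sum, seminal vesicle genes were highest in GLP1, where all 10 were higher than in Vehicle, against 20.8% of all genes. Svs1 and Svs3a, at 0 in WT, Vehicle and Combo, hold a row only through GLP1 and antiIL17A. The list was also written with earlier results known, so its counts are a description. Svs5, a protein of the copulatory plug, held 17 to 28 counts in WT, 0 in Vehicle, 19156 to 28050 in GLP1, 6584 to 8037 in antiIL17A and 12 to 34 in Combo. Svs2, another plug protein, held 0 to 43 counts in WT, 17512 to 25962 in GLP1 and 84 to 102 in Combo. Relative to WT, 9 of the 10 were higher in GLP1 and 7 in antiIL17A, against 7.7% and 9.65% of all genes. The summed level of the 10 genes was 2411.0 to 2509.3 CPM in GLP1, 462.8 to 508.0 in antiIL17A, 68.5 to 69.5 in WT, 18.0 to 23.1 in Vehicle and 16.2 to 18.1 in Combo. WT, with the 5 male tract genes at their highest, thus held few seminal vesicle reads.

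The summed level of 16 male germ cell genes was 1104.2 to 1171.9 CPM in antiIL17A, with 837.1 to 875.7 in GLP1, 157.0 to 170.8 in WT and at most 12 in Vehicle and Combo. Prm2, a protamine of sperm chromatin, held 467 to 521 counts in WT, 3426 to 5435 in GLP1, 12036 to 15006 in antiIL17A, 0 in Vehicle and 0 to 7 in Combo. Prm1, the other protamine, ran the other way between the treated groups, at 151.3 ± 7.27 CPM (SD, n = 3) in GLP1 and 87.0 ± 6.93 in antiIL17A. In antiIL17A vs GLP1, 3 of the 16 were higher, 2 lower and 11 not called, against 3.22% higher and 4.88% lower of all genes. All 16 genes were higher in antiIL17A than in Vehicle, and 15 were higher than in WT, against 22.4% and 9.65% of all genes. In Vehicle 7 of the 16 were at 0, and the list was written with earlier results known, so these counts are a description. Mesothelial genes followed WT, with 1443.4 to 1531.5 CPM over 7 genes there and 46.1 to 248.2 CPM in the other 4 groups. All 7 were lower in Vehicle than in WT, against 22.9% of all genes. B cell and adipocyte genes were also highest in WT, at 199.0 to 248.7 CPM over 4 genes and 247.3 to 256.3 CPM over 9 genes. In the other groups they summed to 36.2 to 104.5 CPM and 61.8 to 140.1 CPM. Epithelial genes were also highest in WT as a sum, but differed from the 5 genes in the order of the other groups. The summed level of 12 epithelial genes was 948.0 to 975.3 CPM in WT and 764.3 to 825.8 in Vehicle. It was lowest, 90 to 107.8, in antiIL17A. Between Vehicle and WT 3 were higher and 4 lower, against 12.5% and 22.9% of all genes. In GLP1 vs WT 9 were lower and 1 higher, against 7.42% and 7.7% of all genes. All 12 were lower in antiIL17A vs WT and 9 in Combo vs WT, against 9.04% and 14.5%. Endothelial genes did not follow the 5 genes. The summed level of 7 endothelial genes was 2506.6 to 2590.8 CPM in Vehicle and 779.4 to 790.1 in WT. The part of these tissues in the level of the 5 genes was not tested.

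Akr1b7 is also made in the adrenal cortex, so adrenal genes are given beside its reads in Combo. Cyp11b1, an enzyme of corticosteroid synthesis, held 0 counts in WT and 0 to 1 in Vehicle, but 364 to 614 in GLP1, 332 to 410 in antiIL17A and 265 to 368 in Combo. Cyp21a1, the steroid hydroxylase of the cortex, held 168 to 231 counts in Combo and 0 to 11 in Vehicle. Of 10 steroidogenic genes tested, 4 were higher in Combo than in Vehicle, against 14.1% of all genes, and 6 were not called. Star, of the same list, held 657 to 1174 counts in Combo and 122 to 208 in Vehicle, but 696 to 1074 in WT. Serpina1f and Defb42 held 0 in Combo, where Akr1b7 held 72 to 143. Combo also held pancreatic acinar genes, at 1628.7 to 1651.4 CPM over 16 genes against at most 137.2 CPM in any library of other groups. All 16 were higher than in Vehicle, against 14.1% of all genes. In Vehicle 11 of them were at 0, and this list too was written with earlier results known. The part of adrenal tissue in the reads of Akr1b7 was not tested.

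**Figure D4:**
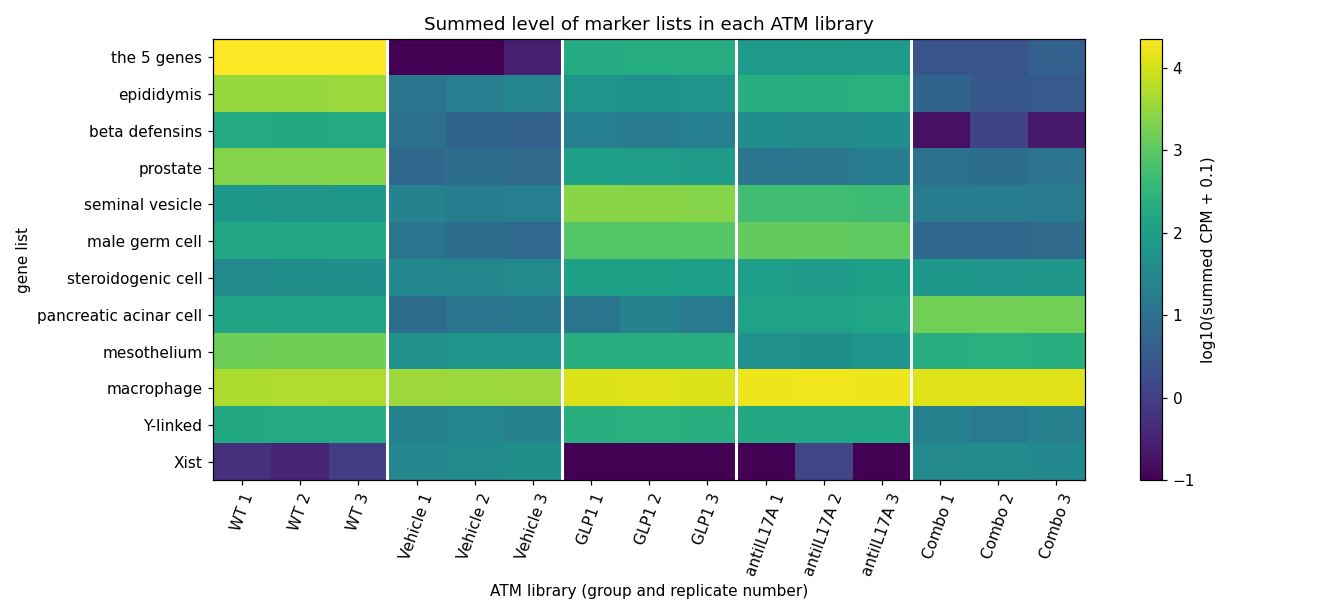
Color gives log10 of the summed CPM plus 0.1 for each gene list (rows) in each of the 15 ATM libraries (columns, 3 per group, white lines between groups). The lists peak in different groups, the 5 genes, epididymis, beta defensins, prostate and mesothelium in WT, seminal vesicle in GLP1, male germ cell in antiIL17A and pancreatic acinar cell in Combo.

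Sex-linked genes divided the libraries in the same way as the 5 genes. Xist, the RNA that silences an X chromosome in females, held 8 to 24 counts in WT, 0 in GLP1 and 0 to 53 in antiIL17A, but 747 to 1024 in Vehicle and 1098 to 1400 in Combo. Ddx3y, a Y-linked RNA helicase, held 3163 to 3496 counts in WT, 4230 to 6255 in GLP1, 3344 to 4413 in antiIL17A, 165 to 402 in Vehicle and 224 to 410 in Combo. The 9 libraries with at most 53 Xist counts held 3210 to 699714 reads of the 5 genes and 5047 to 9114 of 4 Y-linked genes. The other 6 libraries, with at least 747 Xist counts, held 0 to 148 reads of the 5 genes and 489 to 847 of the Y-linked genes. Group and this division cannot be told apart, since each group lay wholly on 1 side. In BM the same 2 groups stood apart, with 5284 to 6250 Xist counts in Vehicle and 3382 to 3555 in Combo, and at most 125 in the other groups.

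**Figure D5:**
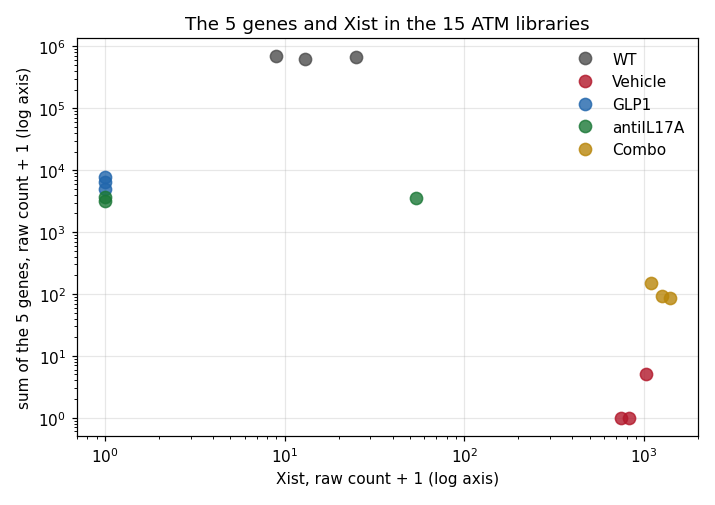
Sum of the raw counts of the 5 genes plus 1 against the raw count of Xist plus 1, both on log axes, 1 point per ATM library and colored by group. The 6 libraries of Vehicle and Combo, with 747 to 1400 Xist counts, hold at most 148 reads of the 5 genes, and the other 9 hold at least 3210.

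As the genes were chosen on these counts, their likeness over the 15 libraries is a description only, and Serpina1f differed from the other 4 in lying higher in antiIL17A than in GLP1. Pearson's r of their log2 CPM ran from 0.952 between Akr1b7 and Serpina1f to 0.995 between Defb42 and Serpina1f, with groups of 3 libraries sharing their condition. Among 16578 genes whose counts averaged 10 or more, 132 had an r above 0.9 with the mean of the 5. The 10 most like it were Crygc (r = 0.994), Gsdma, Defb43, Tcn2, Slc26a3, Glb1l3, D730048I06Rik, Folr1, Cxcr5 and Pgrmc1 (r = 0.961). None of these 10 is among the 10 most alike by Spearman's rho. Crygc, a lens crystallin, stood at 89.9 CPM in WT, 2.24 in GLP1, 1.33 in antiIL17A and 0 in Vehicle and Combo. Tcn2, a vitamin B12 carrier, varied far less, at 280 CPM in WT, 229 in GLP1, 196 in antiIL17A, 147 in Vehicle and 149 in Combo.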

How the data were processed

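RNA sequencing of ATMs and BM was analysed from the raw counts that the authors deposited, 1 table per tissue. Per the paper's methods, alignment to mm10 used STAR (2.7.2a) and gene counting used featureCounts (2.0.1) with GENCODE genes. Strand was ignored, and a read that overlapped more than 1 gene was added to each of them. The authors' own tests were made with DESeq2. Genes with few counts over all libraries were already left out of the deposited counts. Samples were grouped by their labels, and all 30 columns were matched.

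The members and gene lists were chosen with earlier results of these data known. Counts of the 15 ATM libraries were fitted with edgeR 4.0.16 in R 4.3.3 (TMM, filterByExpr, which removed 0 genes, robust quasi-likelihood test, adjusted p under 0.05 and log2 fold change beyond 1), with DESeq2 1.42.0 as an alternative, and the functions were tested on simulated data. CPM used TMM library sizes. Group ratios were taken of mean CPM, with 3 counts per library as the floor. Genes most like the 5 were ranked by Pearson's r of log2 CPM with a prior count of 2. Coordinates came from GENCODE M21 and promoters from RefSeq, both GRCm38, the assembly of mm10. The genes named were the 5, those of the tract lists apart from an item not reported here, paralogs, Xist and Y-linked genes, the 10 most alike, and up to 4 of the most abundant genes of each other list. Cyp11b1 and Cyp21a1 were named for their link to Akr1b7, after their values were seen. Depth ranged from 24876074 to 45300263 counts per ATM library. Alternatives were other scaling, filters, DESeq2, fits of 2 groups only, a replicate block and leaving out each library.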

Additional observations from a re-analysis of the deposited data

How the results depend on the processing

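For the 44 epididymal and defensin genes, the number called in each comparison stayed within 1.5 times of the value reported under DESeq2 size factors, DESeq2, no low-count filter and no fold limit. A filter of at least 10 counts in every library left none of the 44 genes to test. Fits on the libraries of 2 groups alone tested fewer of them, and gave 10 calls of 12 genes tested in GLP1 vs Vehicle, in place of 16 of 44, and 2 calls of 3 genes tested in Combo vs Vehicle, in place of 8. With the replicate number as a replicate block, Combo vs Vehicle gave 4 calls, and the other counts were 37 in Vehicle vs WT, 13 in GLP1 vs Vehicle and 34 in antiIL17A vs Vehicle. Deviations of same-numbered libraries correlated at -0.02 to 0.03, so the numbers did not pair the samples. Leaving out 1 library gave 4 to 10 calls in Combo vs Vehicle, 4 without Combo replicate 1 or 3 and 5 without Combo replicate 2, and the cause was not tested. Calls in the smaller direction were the less stable. Without 1 library, those lower in GLP1 vs Vehicle numbered 1 to 4, and those higher in GLP1 vs WT and antiIL17A vs WT 1 to 2, in place of 3. The planned comparisons otherwise gave, without 1 library, 35 to 39 in Vehicle vs WT, 14 to 16 in GLP1 vs Vehicle and 33 to 38 in antiIL17A vs Vehicle. The log2 ratios of the 5 genes kept their sign in all 64 values under other scaling and all 191 without 1 library. Other scaling moved them by at most 0.44 and leaving out a library by at most 1.00, the latter in 9530053A07Rik in Combo vs WT without Combo replicate 1. Settings that allowed no ratio were not counted, as for 9530053A07Rik in Combo vs Vehicle without Combo replicate 1. In Combo vs Vehicle, 3 of the 5 genes had no ratio at all. Of the 10 genes most like the 5, 9 were shared without the library with the highest mean, and 0 with Spearman's rho. Counts of 3 or fewer set the limit of what can be said of the 5 genes in Vehicle and Combo.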
